A study of Bos taurus with 12 samples.

Results

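The RNA of bovine oocytes at metaphase of the second meiotic division (MII) was compared with the RNA of oocytes at the germinal vesicle (GV) stage. Of 16675 genes in the expression table, 11739 averaged 1 FPKM or more across the 6 input libraries, and all of these were tested. The series held 12 libraries, and the 6 used here were inputs, that is poly(A) RNA that had not gone through the antibody step against N6-methyladenosine. Both stages were oocytes cultured in vitro, 3 libraries each, with no drug, genotype or age given in the labels. The comparison asked how the maternal transcriptome differs between the stages. FPKM stands for fragments per kilobase of transcript, scaled to the fragments of the library, so each value is relative to its whole library, and the reads were selected by their poly(A) tails.

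A GV oocyte waits in prophase of meiosis I, with an intact nucleus and a store of maternal messenger RNA. When maturation starts, the nuclear envelope breaks down, transcription is largely silent, the first polar body is extruded and the egg arrests again at MII. Levels of maternal messages then change by decay and by shortening or lengthening of poly(A) tails, processes known from mouse, frog and cattle oocytes.

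Around the limit of 1 FPKM, LRRC61 stood just inside, with a mean of 0.477 FPKM in MII and 1.52 FPKM in GV. MIR127 was also just inside, at 2.39, 1.45 and 2.17 FPKM in MII libraries 1, 2 and 3, and it was listed at 0 in the 3 GV libraries. TNFRSF25 stood just outside, at 1.81, 1.90 and 2.28 FPKM in MII and at 0 in all GV libraries. Throughout, 3 values of a stage are those of libraries 1, 2 and 3 in that order.

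Libraries of a stage ranked genes almost alike. Spearman's correlation over the tested genes was 0.983 between MII libraries, 0.986 to 0.987 between GV libraries and 0.912 to 0.918 across the stages; genes are not independent replicates. Between 11901 and 11920 genes reached 1 FPKM in an MII library, against 11228 to 11280 in a GV library. Between 1282 and 1727 genes of the table were listed at 0 in an MII library, against 3722 to 3765 in a GV library. A listed 0 can be a failed estimate in an FPKM table and is given only as a listed value. Whether the 3 libraries of a stage are separate animals or cultures is not stated, and the p-values thus rest on library spread alone, which may be technical. Depth in reads was not used here.

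Most of the genes tested differed between the stages. By limma on log2(FPKM + 1), with Benjamini-Hochberg adjustment at 0.05, 7140 genes or 60.8% were called, 3761 or 32.0% higher in MII and 3379 or 28.8% lower. The log2 change was under 0.5 in size for 2953 of the called genes, from 0.5 to 1 for 2772, from 1 to 2 for 1150 and 2 or more for 265. The upper tail was the longer one. The 5th and 95th percentiles of the change over all tested genes were -0.86 and 1.44, around a median of 0.01. The libraries of the stages did not overlap for 67.3% of the genes tested. A rise of at least 1 was called for 8.90% of the genes tested and a fall of at least 1 for 3.15%. These sizes are set against a median SD between libraries of 0.11 in MII and 0.10 in GV on the same scale. The balance of calls turned with scaling to a common median, with 3330 higher and 3946 lower, with quantile normalization, with 3255 higher and 3990 lower, and without the mitochondrial genome, with 3207 higher and 3928 lower.

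The most abundant messages were largely shared. Of the 100 genes highest in MII, 75 were among the 100 highest in GV, and of the 1000 highest 818 were shared. At least 20 FPKM in MII with under 5 FPKM in GV was found for 24 genes, and the converse for 1 gene.

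Part of the rise lay in genes with little or nothing listed in GV. A mean of at least 1 FPKM in both stages was found for 10779 genes. A further 651 were under 1 FPKM in GV and 309 under 1 FPKM in MII. These entered the test through the stage in which they were higher, so their calls are not read as support. Among tested genes, 260 were listed at 0 in every GV library, of which 207 were protein-coding, 22 were long noncoding and 13 were annotated microRNA genes. Only 27 tested genes were listed at 0 in every MII library, 8 of them protein-coding. Over the 11179 genes above 0 in all 6 libraries the median change was -0.00, with 3406 called higher and 3303 lower.

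The largest rises among protein-coding genes averaging 10 FPKM or more included ALDOC and PKLR of glycolysis, RPL39 of the ribosome and NDUFB1 of the respiratory chain. The naming rule took that mean over both stages. It also asked for a value above 0 in all libraries and stages that did not overlap. SPAG7, ALDOC, PKLR, RPL39 and NDUFB1 passed the mean through MII, with GV means of 1.70, 2.14, 1.87, 2.39 and 6.93 FPKM. So did XPNPEP2, IFI35, LPCAT3, TSTD1 and TMEM258, with GV means of 3.34, 2.31, 5.56, 2.52 and 7.60 FPKM. Among these rises, only SLC2A4 and WDR55 averaged 10 FPKM or more in both stages. Among the falls, DCK, TFB2M, SMIM15 and LACTB2 passed it through GV. The rule thus favours genes high in 1 stage, and these names are not read as support for a function. SPAG7 (chr19:26434654-26438799 in the files' coordinates), sperm associated antigen 7, was at 23.8, 23.5 and 32.8 FPKM in MII, against 1.66, 1.66 and 1.78 FPKM in GV, a log2 change of 3.34 ± 0.14 (SE, n = 3 each; limma adjusted p = 2.5e-06). ALDOC, the aldolase C of glycolysis, was at 24.7, 22.6 and 22.7 FPKM in MII, against 2.36, 2.16 and 1.91 FPKM in GV, a log2 change of 2.96 ± 0.09 (SE, n = 3 each; limma adjusted p = 8.6e-07). PKLR, the pyruvate kinase of liver and red cells, was at 18.7, 19.0 and 19.0 FPKM in MII, against 1.37, 2.17 and 2.08 FPKM in GV, a change of 2.80 ± 0.13 (SE, n = 3 each; limma adjusted p = 4.1e-06). In each of these genes the lowest MII library was several times the highest GV library.

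RPL39, a very small protein of the large ribosomal subunit, was at 21.3, 26.4 and 24.1 FPKM in MII, against 1.99, 3.33 and 1.83 FPKM in GV, a log2 change of 2.90 ± 0.17 (SE, n = 3 each; limma adjusted p = 1.3e-05). NDUFB1, an accessory subunit of respiratory complex I, was at 53.8, 47.5 and 59.9 FPKM in MII, against 7.94, 4.22 and 8.61 FPKM in GV, a change of 2.83 ± 0.22 (SE, n = 3 each; limma adjusted p = 3.9e-05). The lowest GV value of NDUFB1 was in library 2. WDR55, a WD-repeat protein of ribosomal RNA processing, reached 141, 137 and 139 FPKM in MII, against 16.8, 22.1 and 21.7 FPKM in GV, a change of 2.73 ± 0.10 (SE, n = 3 each; limma adjusted p = 1.5e-06). TMEM258, a subunit of the oligosaccharyltransferase that attaches N-glycans, rose by 2.73 and TSTD1, a thiosulfate sulfurtransferase, by 2.62 on the log2 scale, both with adjusted p by limma under the threshold.

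SLC2A4 (chr19:26983928-26990339), the insulin-regulated glucose transporter GLUT4, was at 144, 131 and 157 FPKM in MII, against 22.7, 18.7 and 17.1 FPKM in GV, a log2 change of 2.83 ± 0.11 (SE, n = 3 each; limma adjusted p = 1.8e-06). Its interval overlaps YBX2, a germ cell RNA-binding protein gene on the opposite strand with a mean of 453 FPKM. No strand setting of the authors' counting was given, so reads of the pair cannot be told apart. SPAG7, XPNPEP2, IFI35 and LPCAT3 also overlap an opposite-strand gene, with neighbour means of 0.959, 171, 20.2 and 34.4 FPKM. The neighbour of SPAG7 was thus far below SPAG7 itself, which averaged 14.2 FPKM. In all, 5 of the 12 largest rises overlap a gene of the opposite strand, beside 13.2% of all tested genes. IFI35, an interferon-induced protein, rose by 2.84, XPNPEP2, an aminopeptidase, by 3.01, and LPCAT3, which remodels phospholipids, by 2.65.

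**Figure D1:**
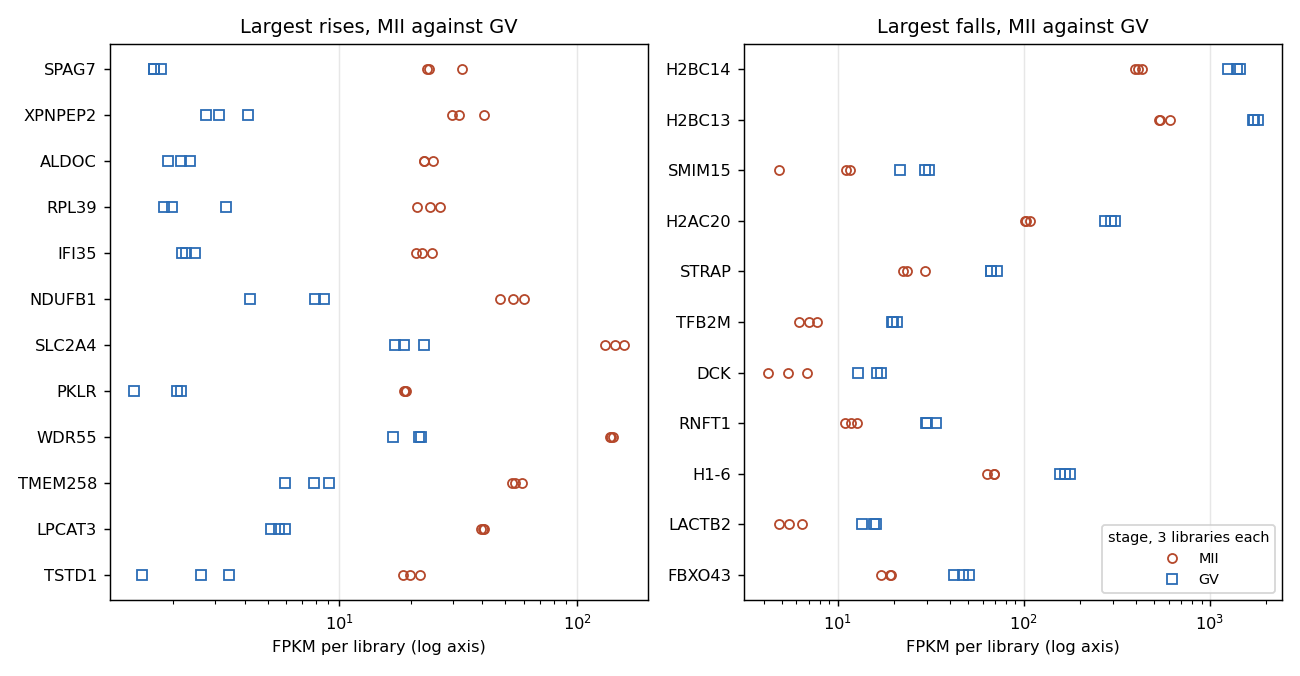
FPKM per library, on a log axis, of protein-coding genes with the largest rises (left) and the largest falls (right) under the naming rule. Circles are the 3 MII libraries and squares the 3 GV libraries, and the stages do not overlap for any gene shown, by that rule.

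Of the 12 largest falls, 4 were histone genes, and the first pair in the order were H2B genes. H2BC14 (chr23:30948090-30995670), a clustered histone H2B gene, was at 410.2, 433 and 398 FPKM in MII, against 1243, 1440.2 and 1404 FPKM in GV, a log2 change of -1.71 ± 0.06 (SE, n = 3 each; limma adjusted p = 1.6e-06). H2BC13, its neighbour on chromosome 23, was at 529, 606 and 537 FPKM in MII, against 1709, 1719 and 1809 FPKM in GV, a change of -1.65 ± 0.06 (SE, n = 3 each; limma adjusted p = 1.5e-06). All MII libraries were at less than the lowest GV library by a wide margin. H2AC20 fell by 1.48 and the testis-type linker histone H1-6 by 1.29 on the log2 scale. Clustered histone genes are near-identical copies, so how reads were shared among them is uncertain, and 4 of the 12 falls overlap an opposite-strand gene (H2BC14, H2AC20, TFB2M and H1-6).

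FBXO43, also called EMI2, the inhibitor of the anaphase-promoting complex that holds the egg at MII, was at 19.2, 19.1 and 17.1 FPKM in MII, against 41.9, 47.2 and 50.8 FPKM in GV, a log2 change of -1.29 ± 0.08 (SE, n = 3 each; limma adjusted p = 1.7e-05). STRAP, a WD-repeat protein that binds TGF-beta receptors and the SMN complex, was at 29.3, 23.6 and 22.3 FPKM in MII, against 66.6, 71.4 and 66.6 FPKM in GV, a change of -1.42 ± 0.10 (SE, n = 3 each; limma adjusted p = 2.3e-05). DCK, the kinase that salvages deoxynucleosides, fell by 1.35, and TFB2M, a factor of mitochondrial transcription, by 1.40. SMIM15, a small membrane protein, was at 11.1, 4.83 and 11.6 FPKM in MII, against 29.6, 21.6 and 31.0 FPKM in GV, a change of -1.55 ± 0.29 (SE, n = 3 each; limma adjusted p = 0.0027), with the lowest value in MII library 2. RNFT1, a ubiquitin ligase of the endoplasmic reticulum, fell by 1.33, and LACTB2, a mitochondrial ribonuclease, by 1.29.

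Genes were next grouped by function in 47 lists. Each is described by how many tested members were called in each direction, beside the 32.0% and 28.8% of all tested genes. Named members were mostly the called ones with the largest changes in each direction, so opposite signs among them follow from the naming. Messages of cytosolic ribosomal proteins, the respiratory chain and the mitochondrial genome stood at 1 end of the order. Histone, condensin and cohesin, centrosome and nuclear pore messages stood at the other. Over the 46 lists of nuclear genes, 27 had a median log2 change above 0. The median of 11 lists changed sign with the scaling, namely splicing factors, Mediator, aminoacyl-tRNA synthetases, DEAD-box helicases, centromere genes, fatty acid oxidation, insulin and mTOR, autophagy, the exosome, solute carriers, and actin and cortex. No direction is given for these as groups. In a further 7 lists the median kept its sign, but whether more members were called higher or lower changed with the scaling, namely V-ATPase, ribosome biogenesis, zinc fingers, citric acid cycle, cholesterol, WNT and apoptosis.

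**Figure D2:**
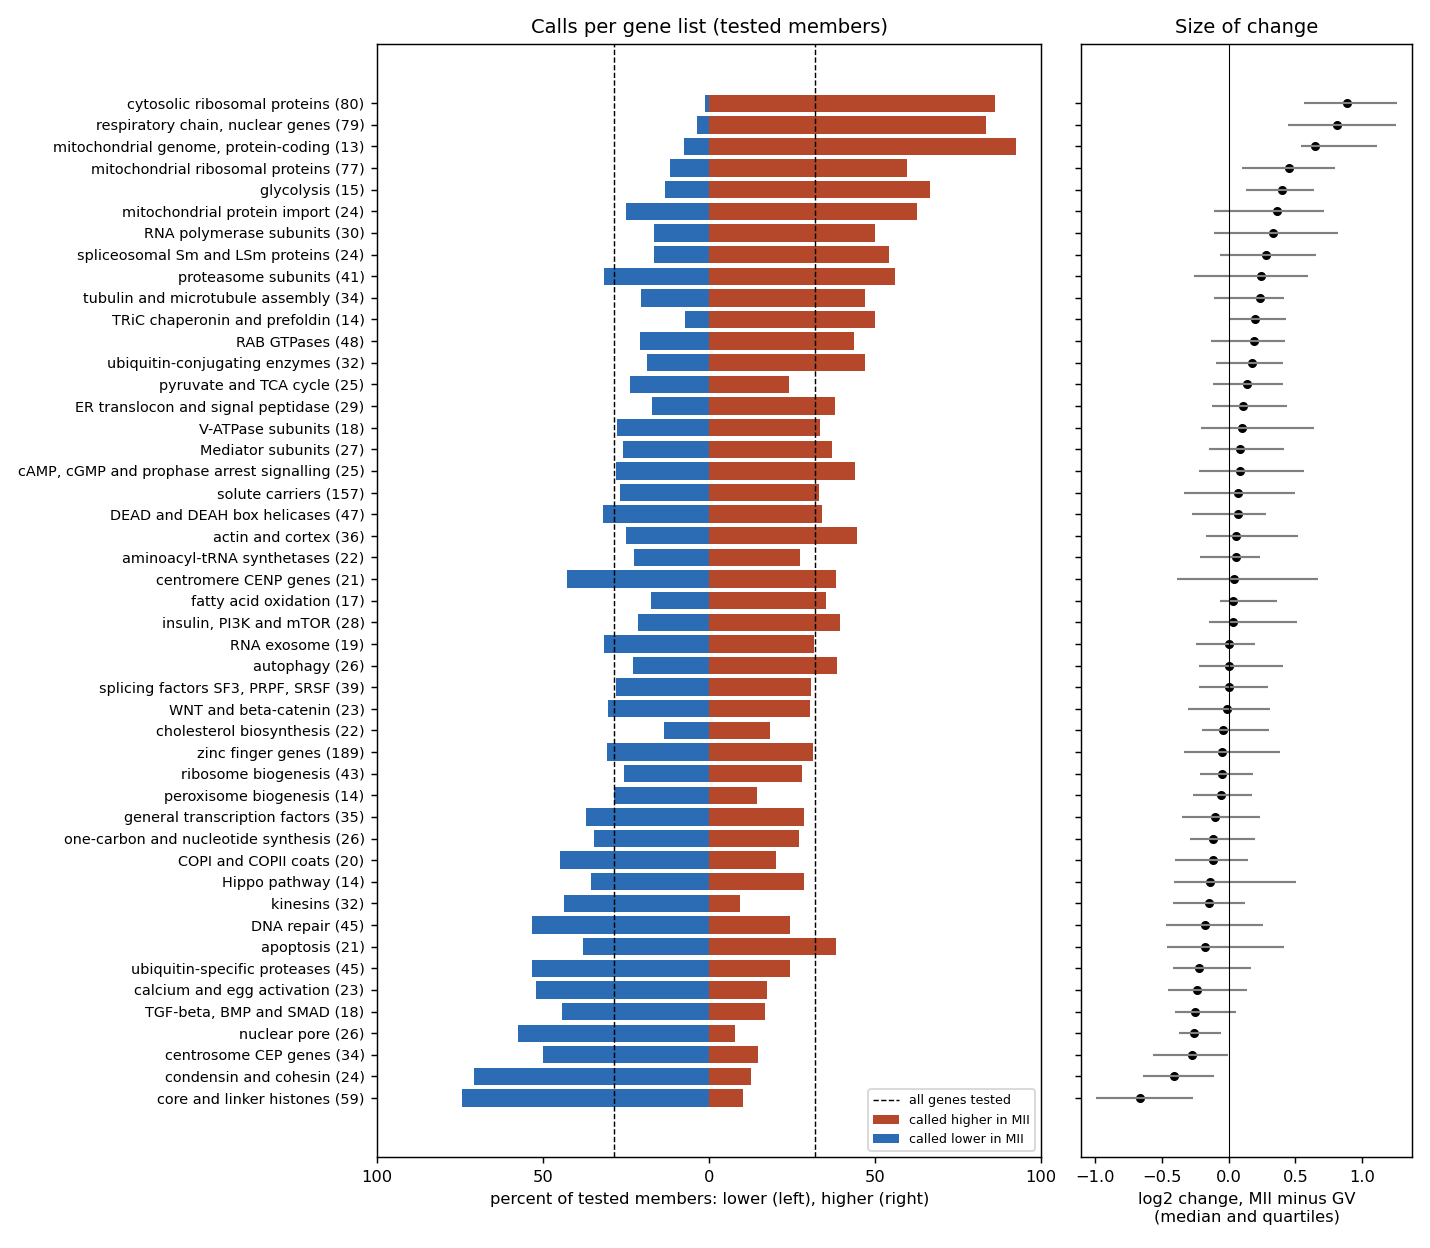
Percent of tested members called lower (blue, left) and higher (red, right) in MII for each gene list, with the number of members in brackets and dashed lines at 28.8% and 32.0% for all genes tested. The right panel gives the median and quartiles of the log2 change, from 0.89 for cytosolic ribosomal proteins to -0.66 for histones.

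Messages of cytosolic ribosomal proteins, which with ribosomal RNA make up the ribosome, were mostly higher in MII. Of 80 tested members, 69 were called higher and 1 lower, with a median log2 change of 0.89, beside 0.01 over all tested genes. Summed over the list they held 7359, 7314 and 7214 FPKM in MII, against 3814, 3846 and 3894 FPKM in GV. RPL36, of the large subunit, was at 198.9, 207 and 194 FPKM in MII, against 47.6, 44.7 and 43.5 FPKM in GV, a log2 change of 2.12 ± 0.05 (SE, n = 3 each; limma adjusted p = 3.4e-07). The 1 that fell was RPS3A, of the small subunit, at 131, 108 and 115 FPKM in MII, against 162, 146 and 143 FPKM in GV, a change of -0.35 ± 0.08 (SE, n = 3 each; limma adjusted p = 0.0065). Ribosomal protein genes have many processed copies in mammalian genomes, so single values can hold reads of a copy.

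The mitochondrial ribosome, which translates the messages of the mitochondrial genome, had calls both ways. Of 77 members, 46 were called higher and 9 lower, with a median of 0.46. MRPL24 was at 10.2, 16.8 and 10.7 FPKM in MII, against 1.72, 1.42 and 2.15 FPKM in GV, and MRPS18C at 41.6, 42.9 and 40.8 FPKM in MII, against 10.7, 12.2 and 10.55 FPKM in GV, with log2 changes of 2.27 and 1.82. MRPS16 was at 19.7, 21.3 and 18.7 FPKM in MII, against 35.4, 34.7 and 39.5 FPKM in GV, a change of -0.84 ± 0.07 (SE, n = 3 each; limma adjusted p = 6.1e-05), and MRPL44 fell by 0.82. These members were named as extremes of each direction, so their opposite signs follow from the naming rule. MRPL24 passed the naming mean of 5 FPKM through MII.

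Other lists of the translation pathway stood near the background. Of 22 aminoacyl-tRNA synthetases and their partners, which charge transfer RNAs, 6 were called higher and 5 lower. FARSB, the beta subunit of the phenylalanine enzyme, was at 40.6, 35.7 and 34.9 FPKM in MII, against 14.1, 12.8 and 13.0 FPKM in GV, a log2 change of 1.41 ± 0.08 (SE, n = 3 each; limma adjusted p = 8.4e-06). Of 43 ribosome biogenesis factors, 12 were called higher and 11 lower, and 8 higher and 17 lower with scaling to a common median. NHP2, a protein of box H/ACA particles, rose by 1.22, and UTP15, of the small subunit processome, was at 13.4, 13.1 and 12.03 FPKM in MII, against 22.3, 22.9 and 21.8 FPKM in GV.

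Nuclear genes of the respiratory chain and ATP synthase were mostly higher in MII. Of 79 members, 66 were called higher and 3 lower, with a median of 0.82 on the log2 scale. Their sum was 3922, 3919 and 3841 FPKM in MII, against 1998, 2060 and 2013 FPKM in GV. NDUFS3, a core subunit of complex I, was at 17.2, 15.9 and 12.4 FPKM in MII, against 2.92, 2.37 and 1.498 FPKM in GV, a log2 change of 2.32 ± 0.19 (SE, n = 3 each; limma adjusted p = 4.7e-05). NDUFS1, the largest core subunit of the same complex, was at 16.4, 16.7 and 17.4 FPKM in MII, against 21.5, 26.9 and 24.9 FPKM in GV, a change of -0.51 ± 0.09 (SE, n = 3 each; limma adjusted p = 0.0016). These core subunits were named as extremes of each direction, so their opposite signs follow from the naming rule. NDUFS3 passed the naming mean of 5 FPKM through MII.

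The 13 protein-coding genes of the mitochondrial genome, which encode the other subunits of these complexes, stood beside them. Of these, 12 were called higher and 1 lower, with a median of 0.65. ND5 was at 653, 593 and 655 FPKM in MII, against 229.9, 228 and 224 FPKM in GV, a log2 change of 1.47 ± 0.05 (SE, n = 3 each; limma adjusted p = 8.6e-07). ND6, which lies on the other strand and overlaps ND5, was at 1790.2, 1538 and 1644 FPKM in MII, against 644, 604 and 589 FPKM in GV. ATP8 was at 149, 148 and 149 FPKM in MII, against 196, 180.3 and 161 FPKM in GV, a change of -0.26 ± 0.07 (SE, n = 3 each; limma adjusted p = 0.011). Both mitochondrial ribosomal RNAs were called lower, with a median of -0.97, as were 11 of 22 mitochondrial transfer RNAs, while 4 of those were called higher.

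Import of proteins into mitochondria gave 15 of 24 members higher and 6 lower, with a median of 0.36. TIMM8B, a small chaperone of the space between the membranes, was at 37.2, 34.8 and 38.4 FPKM in MII, against 10.96, 18.3 and 15.2 FPKM in GV, a log2 change of 1.29 ± 0.16 (SE, n = 3 each; limma adjusted p = 3.1e-04). PAM16, of the import motor, rose by 1.22. TIMM21, of the inner membrane translocase, was at 16.1, 15.3 and 13.8 FPKM in MII, against 28.5, 23.0 and 23.6 FPKM in GV, a change of -0.70 ± 0.10 (SE, n = 3 each; limma adjusted p = 6.3e-04), and TOMM7, of the outer membrane translocase, fell by 0.40.

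Of 15 glycolytic genes tested, 10 were called higher and 2 lower, with a median of 0.40, and ALDOC led them. TPI1, the triosephosphate isomerase, was at 13.8, 14.8 and 12.4 FPKM in MII, against 3.62, 5.50 and 5.02 FPKM in GV, a log2 change of 1.37 ± 0.14 (SE, n = 3 each; limma adjusted p = 1.4e-04). The other pathways of carbon metabolism had calls both ways. The pyruvate and citric acid cycle list had 6 higher and 6 lower of 25, with MDH1, the cytosolic malate dehydrogenase, up by 1.40 and IDH3A, a subunit of isocitrate dehydrogenase, at 12.3, 10.9 and 9.26 FPKM in MII, against 17.6, 17.7 and 15.4 FPKM in GV. Of 17 genes of fatty acid oxidation, 6 were called higher and 3 lower. ACADS, the short-chain acyl-CoA dehydrogenase, was at 38.1, 39.8 and 36.7 FPKM in MII, against 7.15, 7.11 and 7.61 FPKM in GV, a log2 change of 2.24 ± 0.06 (SE, n = 3 each; limma adjusted p = 6.5e-07). ETFDH, the dehydrogenase that takes electrons from the flavoprotein ETFA, rose by 1.35, and ETFA itself was at 29.5, 25.5 and 33.1 FPKM in MII, against 57.5, 58.4 and 53.8 FPKM in GV, a change of -0.93 ± 0.09 (SE, n = 3 each; limma adjusted p = 1.1e-04). ETFDH and MDH1 overlap PPID and WDPCP, respectively, on the opposite strand, at means of 45.5 and 23.5 FPKM. Reads of these pairs cannot be told apart.

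Of 22 genes of cholesterol biosynthesis, 4 were called higher and 3 lower. TM7SF2, a sterol reductase, rose by 1.80, and HMGCS1, the synthase at the head of the pathway, was at 92.7, 86.5 and 86.2 FPKM in MII, against 141, 136 and 139 FPKM in GV, a log2 change of -0.64 ± 0.04 (SE, n = 3 each; limma adjusted p = 2.1e-05). The list of one-carbon and nucleotide synthesis, 7 higher and 9 lower of 26, split between ADSL, which makes adenylate and rose by 1.03, and RRM1, of ribonucleotide reductase, at 27.7, 25.2 and 24.6 FPKM in MII, against 43.8, 42.4 and 42.2 FPKM in GV.

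Protein turnover was mixed. Of 41 proteasome subunits, 23 were called higher and 13 lower, with a median of 0.25. PSMB2, a catalytic-core subunit, was at 30.8, 34.7 and 33.4 FPKM in MII, against 9.17, 12.2 and 9.15 FPKM in GV, a log2 change of 1.61 ± 0.11 (SE, n = 3 each; limma adjusted p = 2.5e-05). PSMC6, an ATPase of the regulatory cap, was at 3.93, 4.97 and 4.93 FPKM in MII, against 9.93, 9.13 and 11.2 FPKM in GV, a change of -0.98 ± 0.12 (SE, n = 3 each; limma adjusted p = 2.9e-04). PSME1, an activator subunit, rose by 2.06 and the activator PSME4 fell by 0.83. Of 32 ubiquitin-conjugating enzymes, 15 were called higher and 6 lower, while of 45 ubiquitin-specific proteases 11 were called higher and 24 lower. UBE2G2, a conjugating enzyme of degradation at the endoplasmic reticulum, rose by 1.66. USP28, a protease that takes ubiquitin off its targets, was at 75.9, 73.4 and 71.5 FPKM in MII, against 131, 132 and 135 FPKM in GV, a change of -0.84 ± 0.04 (SE, n = 3 each; limma adjusted p = 4.6e-06). USP3, a histone deubiquitinase, rose by 1.82.

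The folding machines TRiC and prefoldin had 7 members higher and 1 lower of 14. PFDN5 was at 115, 111 and 101 FPKM in MII, against 50.3, 46.2 and 56.3 FPKM in GV, a log2 change of 1.09 ± 0.08 (SE, n = 3 each; limma adjusted p = 3.1e-05), and the 1 that fell was CCT8, of TRiC, at 119.6, 113 and 122.8 FPKM in MII, against 145, 144 and 146 FPKM in GV.

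RNA polymerase subunits were called higher more often than lower. Of 30 members, 15 were called higher and 5 lower, with a median of 0.33. POLR2I, a small zinc-binding subunit of polymerase II, was at 122.6, 117 and 127 FPKM in MII, against 47.6, 32.4 and 34.3 FPKM in GV, a log2 change of 1.67 ± 0.13 (SE, n = 3 each; limma adjusted p = 3.9e-05). POLR2I overlaps TBCB on the opposite strand, at a mean of 40.8 FPKM. POLR2F, a small subunit shared by the 3 nuclear polymerases, was at 29.5, 33.3 and 39.7 FPKM in MII, against 13.9, 12.1 and 12.5 FPKM in GV, a change of 1.34 ± 0.11 (SE, n = 3 each; limma adjusted p = 5.0e-05). POLR2A, the largest subunit of polymerase II, was at 32.4, 31.8 and 32.8 FPKM in MII, against 46.9, 47.2 and 46.4 FPKM in GV, a change of -0.52 ± 0.04 (SE, n = 3 each; limma adjusted p = 5.0e-05), and POLR2B, the other large subunit, fell by 0.62. Mediator, which links activators to polymerase II, had 10 higher and 7 lower of 27, with MED18 up by 1.37 and MED20 down, at 22.3, 25.7 and 18.6 FPKM in MII, against 35.7, 39.5 and 38.7 FPKM in GV. General transcription factors had 10 higher and 13 lower of 35, with TAF12 up by 0.74 and GTF2H3 at 14.1, 15.3 and 17.2 FPKM in MII, against 23.5, 22.2 and 26.3 FPKM in GV. Zinc finger genes, mostly transcriptional repressors, had 59 higher and 58 lower of 189, and 52 higher and 74 lower with scaling to a common median.

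Of 24 Sm and LSm proteins, the rings that bind small nuclear RNAs and decaying messages, 13 were called higher and 4 lower, with a median of 0.28. LSM2 was at 55.9, 57.8 and 55.3 FPKM in MII, against 27.3, 24.7 and 26.7 FPKM in GV, a log2 change of 1.07 ± 0.05 (SE, n = 3 each; limma adjusted p = 6.3e-06), and SNRPE at 50.6, 48.8 and 52.5 FPKM in MII, against 72.5, 80.6 and 76.6 FPKM in GV, a change of -0.59 ± 0.05 (SE, n = 3 each; limma adjusted p = 7.6e-05). The SF3, PRPF and SRSF splicing factors had 12 higher and 11 lower of 39. SF3B6 rose by 0.79, whereas SF3B1, the large scaffold of the same complex, was at 28.3, 23.6 and 23.4 FPKM in MII, against 49.2, 50.2 and 51.4 FPKM in GV, a change of -0.98 ± 0.08 (SE, n = 3 each; limma adjusted p = 4.2e-05). Of 47 DEAD and DEAH box helicases, 16 were called higher and 15 lower. DDX3X, a helicase of translation initiation, was at 163, 154 and 153 FPKM in MII, against 289.5, 300.5 and 307 FPKM in GV, a change of -0.93 ± 0.04 (SE, n = 3 each; limma adjusted p = 3.6e-06), and DDX39A, of message export, rose by 0.79. The exosome and its cofactors, which degrade RNA from its 3′ end, had 6 higher and 6 lower of 19, with EXOSC8 up by 1.22.

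Histone messages were mostly lower in MII. Of 59 tested members, 44 were called lower and 6 higher, with a median log2 change of -0.66. Their sum was 19982, 20797 and 20055 FPKM in MII, against 33942, 33171 and 32865 FPKM in GV, so histone messages held 3.49% of summed FPKM in MII and 6.04% in GV on average. The exact permutation p for that share was 0.1, the smallest that 3 against 3 libraries allow. H2BC18, the highest histone gene, was at 4652, 4828 and 4513 FPKM in MII, against 8588, 7165 and 6661 FPKM in GV, and H4C1 at 2421, 2533 and 2597 FPKM in MII, against 3793, 3872 and 3853 FPKM in GV, with log2 changes of -0.67 and -0.61. H2BK1, a variant H2B gene, went the other way, at 236, 277 and 247 FPKM in MII, against 92.6, 91.7 and 96.6 FPKM in GV, a change of 1.42 ± 0.06 (SE, n = 3 each; limma adjusted p = 3.1e-06). In dividing cells most clustered histone messages end in a stem-loop and not in a poly(A) tail, and tails were not measured here.

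Chromosome structure genes were mostly called lower. Of 24 condensin, cohesin and related genes, which hold and compact sister chromatids, 17 were called lower and 3 higher, with a median of -0.41. SMC3, a core ring protein of cohesin, was at 79.4, 67.4 and 70.7 FPKM in MII, against 146, 135 and 140.1 FPKM in GV, a log2 change of -0.95 ± 0.06 (SE, n = 3 each; limma adjusted p = 2.3e-05). ESCO2, which acetylates SMC3, was at 37.7, 33.2 and 32.4 FPKM in MII, against 60.6, 65.8 and 65.3 FPKM in GV, a change of -0.88 ± 0.07 (SE, n = 3 each; limma adjusted p = 3.9e-05). STAG3, the meiotic cohesin subunit, rose by 0.43 and NCAPH2, of condensin II, by 0.57. DNA repair gave 24 lower and 11 higher of 45, with LIG4, the ligase of end joining, down by 0.83 and XRCC1, a scaffold of single-strand break repair, up by 0.75. Of 26 nuclear pore genes, 15 were called lower and 2 higher, with a median of -0.26. SEH1L was at 28.5, 26.2 and 27.3 FPKM in MII, against 51.1, 47.4 and 51.0 FPKM in GV, a change of -0.84 ± 0.06 (SE, n = 3 each; limma adjusted p = 2.0e-05), and the 2 that rose were NUP62, at 62.8, 63.9 and 62.9 FPKM in MII, against 41.3, 42.6 and 38.2 FPKM in GV, and NUP93.

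Genes of the spindle poles and motors were lower more often than higher. Of 34 CEP genes, which encode centrosomal proteins, 17 were called lower and 5 higher, with a median of -0.27. CEP76 was at 6.07, 5.97 and 7.09 FPKM in MII, against 16.4, 16.02 and 18.5 FPKM in GV, a log2 change of -1.28 ± 0.10 (SE, n = 3 each; limma adjusted p = 3.2e-05). Of 32 kinesins, the motors that walk along microtubules, 14 were called lower and 3 higher. KIF15, a spindle motor, was at 34.5, 31.9 and 32.1 FPKM in MII, against 61.7, 55.6 and 58.5 FPKM in GV, a change of -0.82 ± 0.06 (SE, n = 3 each; limma adjusted p = 2.5e-05), and KIF3C rose by 0.42. The CENP genes of the centromere had 8 higher and 9 lower of 21. CENPA, the histone variant that marks the centromere, was at 4.78, 5.46 and 5.26 FPKM in MII, against 9.87, 7.58 and 8.03 FPKM in GV, and CENPT rose by 0.87.

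The list of tubulins and microtubule assembly had 16 higher and 7 lower of 34. DYNLL1, a light chain of dynein, was at 571, 586 and 581 FPKM in MII, against 259, 233 and 243 FPKM in GV, a log2 change of 1.24 ± 0.04 (SE, n = 3 each; limma adjusted p = 1.5e-06). TPX2, which nucleates microtubules around chromosomes, was at 131, 135 and 133 FPKM in MII, against 183, 182 and 184 FPKM in GV, a change of -0.46 ± 0.03 (SE, n = 3 each; limma adjusted p = 2.9e-05), and CKAP5, a microtubule polymerase, fell by 0.65. In the actin list, 16 were called higher and 9 lower of 36. PFN1, the actin-binding profilin, was at 139.8, 140.2 and 139 FPKM in MII, against 48.7, 48.1 and 44.1 FPKM in GV, a change of 1.55 ± 0.05 (SE, n = 3 each; limma adjusted p = 7.9e-07). TMSB10, a thymosin that holds actin monomers, was at 188, 158 and 190.5 FPKM in MII, against 50.2, 59.9 and 57.9 FPKM in GV, and MSN, the membrane linker moesin, at 23.9, 22.6 and 21.6 FPKM in MII, against 39.96, 36.8 and 38.9 FPKM in GV, with changes of 1.66 and -0.74.

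Signalling genes of meiotic arrest and egg activation moved both ways. The list of cyclic nucleotide signalling and prophase arrest had 11 higher and 7 lower of 25. CCNB1, the cyclin that drives entry into metaphase, was at 759, 765 and 782 FPKM in MII, against 1456, 1478 and 1478 FPKM in GV, a log2 change of -0.94 ± 0.03 (SE, n = 3 each; limma adjusted p = 1.5e-06). GPR12, a receptor that keeps cyclic AMP high in rodent oocytes, was at 32.3, 35.0 and 38.7 FPKM in MII, against 13.3, 13.4 and 11.7 FPKM in GV, a change of 1.40 ± 0.09 (SE, n = 3 each; limma adjusted p = 1.5e-05). ADCY3, the adenylate cyclase of the mouse oocyte, was at 12.9, 13.5 and 13.0 FPKM in MII, against 2.71, 2.35 and 2.71 FPKM in GV, a change of 1.98 ± 0.09 (SE, n = 3 each; limma adjusted p = 4.6e-06), and it overlaps CENPO on the opposite strand, at a mean of 107 FPKM. PRKACA, the catalytic subunit of the kinase that cyclic AMP activates, was at 4.94, 3.88 and 5.31 FPKM in MII, against 7.76, 7.88 and 7.98 FPKM in GV.

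Of 23 genes of calcium signalling and egg activation, 12 were called lower and 4 higher, with a median of -0.23. CAMK2D, a calcium-dependent kinase, was at 13.0, 13.1 and 12.8 FPKM in MII, against 3.58, 4.49 and 3.85 FPKM in GV, a log2 change of 1.49 ± 0.10 (SE, n = 3 each; limma adjusted p = 1.9e-05), and CALM3, a calmodulin gene, rose by 1.05. YES1, a kinase of the Src family, was at 11.6, 10.8 and 11.5 FPKM in MII, against 20.8, 22.1 and 21.4 FPKM in GV, a change of -0.87 ± 0.06 (SE, n = 3 each; limma adjusted p = 3.3e-05). The TGF-beta list gave 8 lower and 3 higher of 18. Both oocyte ligands of the list were among the members called higher, the other being SMAD3, a signal transducer named after its values were seen. GDF9, a growth factor that oocytes send to cumulus cells, was at 253, 255 and 254 FPKM in MII, against 158, 163 and 169.5 FPKM in GV, a change of 0.63 ± 0.04 (SE, n = 3 each; limma adjusted p = 1.2e-05). BMP15, its partner, was at 414, 413 and 396 FPKM in MII, against 314, 327 and 331 FPKM in GV, a change of 0.33 ± 0.04 (SE, n = 3 each; limma adjusted p = 2.2e-04). ACVR1B, an activin receptor, was at 22.7, 24.8 and 22.7 FPKM in MII, against 42.3, 40.6 and 40.1 FPKM in GV, a change of -0.79 ± 0.06 (SE, n = 3 each; limma adjusted p = 2.8e-05).

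In the insulin, PI3K and mTOR list, 11 were called higher and 6 lower of 28. LAMTOR1, which anchors the Ragulator complex to the lysosome, was at 11.9, 11.7 and 8.10 FPKM in MII, against 1.70, 1.67 and 1.07 FPKM in GV, a log2 change of 2.21 ± 0.18 (SE, n = 3 each; limma adjusted p = 4.3e-05), and RRAGA, a GTPase that Ragulator holds at the lysosome, was at 64.3, 66.3 and 59.2 FPKM in MII, against 86.4, 92.5 and 86.3 FPKM in GV. The Hippo list had 4 higher and 5 lower of 14, with YAP1, its transcriptional effector, at 44.5, 34.5 and 34.9 FPKM in MII, against 58.3, 58.01 and 51.8 FPKM in GV, a change of -0.56 ± 0.10 (SE, n = 3 each; limma adjusted p = 0.0023), and NF2, an upstream inhibitor of growth, up by 0.81. The WNT list had 7 higher and 7 lower of 23, with FZD3, a receptor, at 7.19, 7.20 and 7.99 FPKM in MII, against 13.4, 14.2 and 14.7 FPKM in GV. Autophagy had 10 higher and 6 lower of 26, with GABARAP, which tags autophagosomes, up by 1.23 and ATG12 down by 0.83. Apoptosis had 8 higher and 8 lower of 21, with AIFM1, a flavoprotein of mitochondria, at 90.2, 87.9 and 93.1 FPKM in MII, against 42.5, 39.6 and 42.7 FPKM in GV and APAF1, the core of the apoptosome, down by 0.72.

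Membrane traffic genes moved both ways. RAB GTPases, which direct vesicles, had 21 higher and 10 lower of 48, with RAB1B at 34.9, 35.4 and 37.3 FPKM in MII, against 12.4, 14.8 and 13.6 FPKM in GV, a log2 change of 1.34 ± 0.08 (SE, n = 3 each; limma adjusted p = 1.0e-05), and RAB4A down by 0.96. COPI and COPII coat genes had 4 higher and 9 lower of 20, with ARCN1, a COPI subunit, at 51.7, 48.0 and 50.5 FPKM in MII, against 79.8, 87.4 and 85.6 FPKM in GV, and COPE up by 0.52. The translocon and signal peptidase list had 11 higher and 5 lower of 29, with SSR2 up by 1.69 and SEC61B, of the channel itself, down by 0.57. V-ATPase subunits, which acidify vesicles, had 6 higher and 5 lower of 18, with ATP6V0B up by 1.57 and ATP6V0A2, the large membrane subunit, at 13.6, 13.2 and 13.7 FPKM in MII, against 23.7, 23.0 and 22.8 FPKM in GV. Peroxisome biogenesis had 2 higher and 4 lower of 14, with PEX14 up by 0.59. Solute carriers had 52 higher and 42 lower of 157. Apart from SLC2A4, SLC16A11, of the monocarboxylate transporter family, rose by 2.11, and SLC35A3, a Golgi carrier of nucleotide sugars, was at 4.52, 4.98 and 4.53 FPKM in MII, against 13.5, 13.4 and 13.5 FPKM in GV, a change of -1.35 ± 0.08 (SE, n = 3 each; limma adjusted p = 1.3e-05).

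Genes that mark oocytes were abundant in both stages. Of 22 listed genes 21 were in the table and all of these were tested, with 13 called higher and 3 lower and a median of 0.33. Their sum was 6705 to 7056 FPKM in MII, against 5992 to 6070 FPKM in GV. FIGLA, the transcription factor of zona pellucida genes, was at 189, 229 and 205 FPKM in MII, against 88.6, 82.7 and 79.7 FPKM in GV, a log2 change of 1.30 ± 0.07 (SE, n = 3 each; limma adjusted p = 1.1e-05). OOSP2, an oocyte secreted protein, was at 266, 236 and 237 FPKM in MII, against 517, 504 and 516 FPKM in GV, a change of -1.06 ± 0.05 (SE, n = 3 each; limma adjusted p = 5.8e-06). OOEP, of the maternal subcortical complex, was at 47.4, 57.0 and 40.1 FPKM in MII, against 15.5, 14.7 and 14.8 FPKM in GV, a change of 1.61 ± 0.12 (SE, n = 3 each; limma adjusted p = 2.8e-05), and it overlaps KHDC3L, of the same complex, on the opposite strand at a mean of 362 FPKM.

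Markers of the somatic cells that surround oocytes were mostly low, but not all. STAR, SERPINE2 and HAS2 averaged 158, 31.3 and 27.9 FPKM over the 6 libraries. HAS2, named after its values were seen, was at 21.5, 22.3 and 20.7 FPKM in MII, against 35.4, 34.9 and 32.7 FPKM in GV. Whether this RNA came from oocytes or from somatic cells was not tested. Of 35 cumulus and granulosa markers, 23 were in the table and 12 passed 1 FPKM, of which 4 were called higher and 7 lower. The 12 summed to 261 to 268 FPKM in MII, against 268 to 280.0 FPKM in GV, and the 11 under 1 FPKM summed to 4.69 to 5.70 FPKM in MII, against 3.77 to 5.62 FPKM in GV. STAR, which brings cholesterol to steroid synthesis, held 168, 169 and 165 FPKM in MII, against 143, 157 and 147 FPKM in GV, and the other 11 of the 12 summed to 94.4 to 99.6 FPKM in MII, against 121 to 128 FPKM in GV. VIM, an intermediate filament gene named after its values were seen, was at 0.997, 0.289 and 0 FPKM in MII, against 5.60, 6.08 and 7.25 FPKM in GV, a log2 change of -2.41 ± 0.25 (SE, n = 3 each; limma adjusted p = 1.4e-04). FSHR, the defining receptor of granulosa cells, was listed at 0 in all MII libraries and at up to 0.140 FPKM in GV. CYP19A1, the aromatase, was at 0.432 to 0.551 FPKM in MII, against 0.0738 to 0.189 FPKM in GV. PTGS2, a cumulus expansion gene, was at 7.32, 5.09 and 5.54 FPKM in MII, against 15.7, 15.5 and 14.5 FPKM in GV, a change of -1.23 ± 0.12 (SE, n = 3 each; limma adjusted p = 1.2e-04), and GJA1, the gap junction protein of granulosa cells, fell by 0.98. Other markers of the list went the other way. SERPINE2 was at 36.5, 32.6 and 35.1 FPKM in MII, against 28.6, 26.7 and 28.0 FPKM in GV. GREM1 and CLU were named after their values were seen. GREM1 was at 4.77, 5.37 and 7.05 FPKM in MII, against 2.38, 2.54 and 2.26 FPKM in GV. CLU was at 5.53, 7.70 and 6.20 FPKM in MII, against 2.16, 2.17 and 2.41 FPKM in GV. In bulk libraries, a change in the number of cells of a type and in RNA per cell cannot be told apart. Of 13 theca, blood and immune markers, 7 were in the table and 4 passed 1 FPKM, with 2 called higher and a sum of 39.1 to 40.2 FPKM in MII, against 32.4 to 34.2 FPKM in GV. CSF1R, named after its values were seen, held most of that sum, at 29.9, 29.5 and 27.4 FPKM in MII, against 26.4, 26.9 and 27.6 FPKM in GV. The part of somatic RNA in the gene lists above was not tested.

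The change in RNA level varied with the genomic span of the gene, that is the distance from its start to its end with introns. Among 346 nuclear protein-coding genes under 1 kb the median log2 change was 0.08, and it was 0.24 for 348 genes of 1 to 2 kb. It peaked at 0.35 for 1048 genes of 2 to 5 kb and was 0.26 for 1390 genes of 5 to 10 kb. It was 0.09 for 3116 genes of 10 to 30 kb, -0.11 for 3045 genes of 30 to 100 kb, -0.15 for 1329 genes of 100 to 300 kb and -0.10 for 313 genes of 300 kb or more. The sign turned for the shortest class with quantile normalization, to -0.05, and for the longest class with no filter on low values, to 0.02.

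Calls were split between the classes in the same way. In the class of 2 to 5 kb 539 genes or 51.4% were called higher and 165 or 15.7% lower. In the class of 100 to 300 kb 242 or 18.2% were called higher and 543 or 40.9% lower. The 2 to 5 kb class included 54 genes with only zeros in GV, and the 100 to 300 kb class 10. Such genes entered the test through MII, so their calls are not read as support. After dropping every gene with only zeros in either stage, the median log2 change was 0.32 from 2 to 5 kb. From 100 to 300 kb it was then -0.15. In the coarser division into 5 classes the medians were 0.17 under 2 kb, 0.29 from 2 to 10 kb, 0.09 from 10 to 30 kb, -0.11 from 30 to 100 kb and -0.14 above. Over 10948 protein-coding genes Spearman's correlation of span with log2 change was -0.26, as a description across genes, while span and mean FPKM had a correlation of 0.02.

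The span classes were also compared library by library. The median log2(FPKM + 1) of the 2 to 5 kb class minus that of the 100 to 300 kb class was 0.13, 0.24 and 0.20 in MII, against -0.31, -0.24 and -0.30 in GV. The shorter class thus had the higher median level in every MII library and the lower one in every GV library. With each gene set against its own mean over the 6 libraries, the median of the 2 to 5 kb class minus that of the 100 to 300 kb class was 0.264 ± 0.0487 in MII and -0.249 ± 0.0209 in GV (SD, n = 3 each; exact permutation p = 0.1, 2-sided, the smallest possible). Centring on the mean of the same libraries makes the GV values mirror the MII ones.

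**Figure D3:**
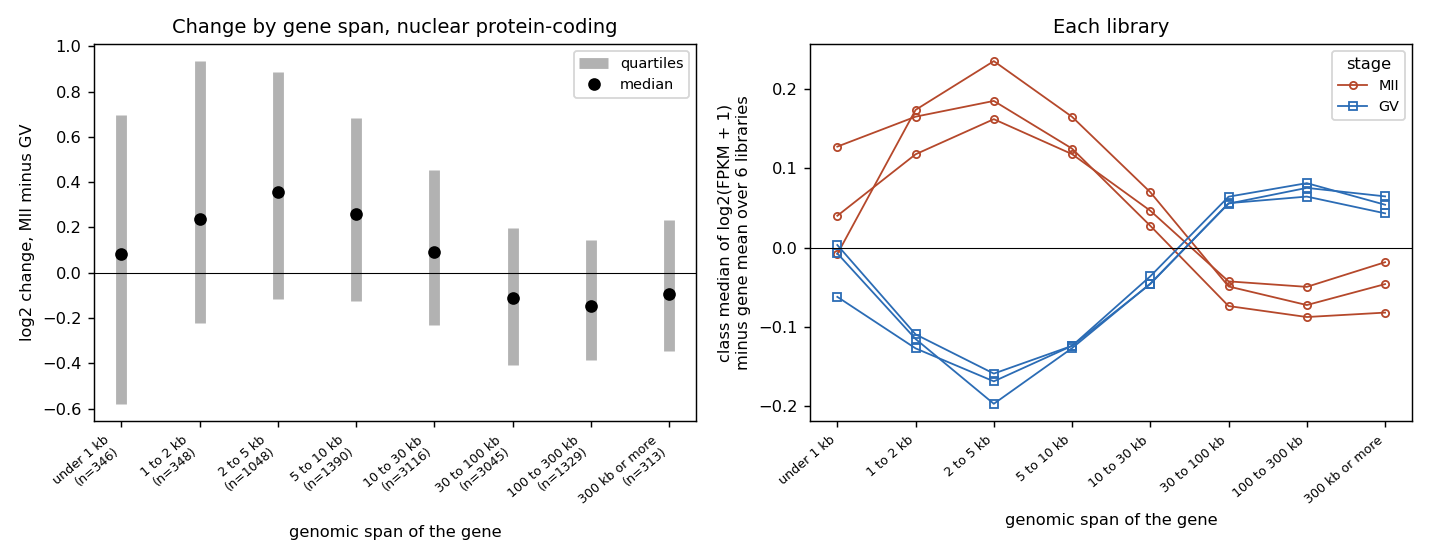
Left, median (points) and quartiles (bars) of the log2 change, MII minus GV, of nuclear protein-coding genes by genomic span in kb. Right, the median deviation of each class from the gene means in each library, circles for MII and squares for GV; in the 2 to 5 kb class all MII libraries lie above all GV libraries, and from 30 kb upward all lie below. The GV lines mirror the MII lines because genes were centred on the mean of all 6 libraries.

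The most abundant members of the span classes moved both with and against the direction of their class. UBB, a polyubiquitin gene of the 1 to 2 kb class, was at 3093, 3096 and 3095 FPKM in MII, against 2449.7, 2547 and 2565 FPKM in GV, a log2 change of 0.30 ± 0.04 (SE, n = 3 each; limma adjusted p = 4.7e-04). FAU, a fusion of a ubiquitin-like and a ribosomal protein in the same class, was at 735, 906 and 740.0 FPKM in MII, against 301, 509 and 498 FPKM in GV, a change of 0.90 ± 0.20 (SE, n = 3 each; limma adjusted p = 0.0054), with a low value in GV library 1. EZR, the membrane linker ezrin of the 30 to 100 kb class, was at 1086, 1129 and 1092 FPKM in MII, against 912, 894 and 900.5 FPKM in GV, a change of 0.29 ± 0.03 (SE, n = 3 each; limma adjusted p = 2.9e-04), against the direction of its class. ANKRD17, of the 100 to 300 kb class, was at 198, 184 and 189 FPKM in MII, against 220.3, 222 and 227 FPKM in GV, and FMNL2, a formin above 300 kb, at 130.2, 125 and 129 FPKM in MII, against 157, 157 and 159 FPKM in GV, with changes of -0.23 and -0.30. CECR2, a chromatin reader of 100 to 300 kb, was at 257, 262 and 262 FPKM in MII, against 265, 254 and 258 FPKM in GV and was not called (limma adjusted p = 0.85).

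The 2 to 5 kb class stood above the 100 to 300 kb class in each of 4 abundance classes. Among nuclear protein-coding genes with a mean of 1 to 5 FPKM the median was 0.28 from 2 to 5 kb and -0.06 from 100 to 300 kb. These groups held 48 of 346 and 9 of 395 genes, respectively, with only zeros in GV. Such genes entered the test through MII, so their changes are not read as support. At 5 to 20 FPKM these medians were 0.32 and -0.17, at 20 to 100 FPKM 0.46 and -0.19, and at 100 to 500 FPKM 0.35 and -0.11. Without ribosomal protein and respiratory chain genes the medians of these span classes were 0.32 and -0.15. With only genes of 1 annotated transcript they were 0.33 and -0.16. Without histone genes the class under 1 kb had a median of 0.16.

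Within functions, shorter members tended to sit above longer ones. Each list with at least 20 tested nuclear members was split at its own median span, and in 34 of 38 lists the shorter members had the higher median. Centromere genes gave the widest gap, with a median of 0.43 in 10 shorter members and -0.28 in 11 longer ones. RNA polymerase subunits had medians of 0.50 and -0.11, with 12 of 15 shorter members called higher and none lower, against 3 higher and 5 lower of 15 longer members. In the actin list these medians were 0.50 and -0.13, and in the DNA repair list 0.09 and -0.38. Cytosolic ribosomal proteins were an exception, with medians of 0.88 and 0.91, as were the citric acid cycle, cholesterol biosynthesis and histones.

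**Figure D4:**
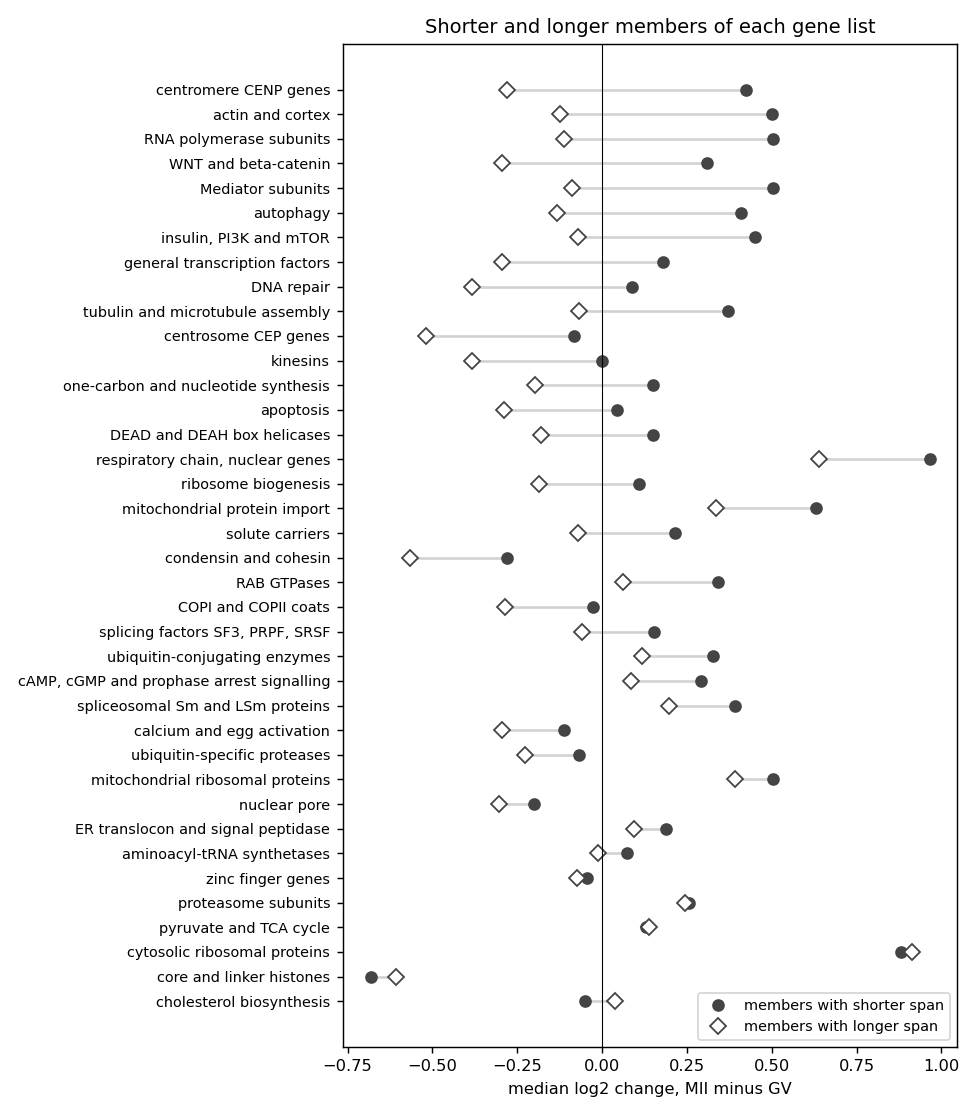
Median log2 change, MII minus GV, of the shorter members (filled circles) and the longer members (open diamonds) of each gene list, split at the list's own median genomic span. In 34 of 38 lists the filled circle lies to the right of the diamond.

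Function and span did not give the same values. Ribosomal protein genes of 2 to 5 kb had a median of 0.85 over 49 members, beside 0.35 over all nuclear protein-coding genes of that span. Respiratory chain genes of 10 to 30 kb had a median of 0.55 over 22 members, beside 0.09. Histone genes under 1 kb had a median of -0.67 over 33 members, beside 0.08 for that class. Across the 46 lists, Spearman's correlation of median span with median change was -0.60, as a description over lists that share libraries.

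Genes that overlap a gene on the opposite strand had more calls higher. Of 1464 such nuclear protein-coding genes, 626 or 42.8% were called higher and 332 or 22.7% lower, with a median log2 change of 0.18. Of 9471 without such a neighbour, 2939 or 31.0% were called higher and 2815 or 29.7% lower, with a median of 0.00. The overlapping genes had the higher median in each span class under 300 kb, with medians of 0.64 and 0.32 from 2 to 5 kb and of 0.45 and 0.22 from 5 to 10 kb, and the lower one at 300 kb or more, with -0.13 over 48 genes and -0.08 over 265. Where the neighbour was at least 10 times as abundant, 56 of 120 genes were called higher and 13 lower, with a median of 0.36. These genes were low, at a median of 2.50 FPKM, and 8 were listed at 0 in every GV library. Those 8 entered the test through MII, so their calls are not read as support. Where the gene was at least 10 times as abundant as its neighbour, 36.8% of 429 were called higher and 28.7% lower. Their median change was 0.07, at a median of 23.0 FPKM. The groups thus differ in abundance, and an effect of the neighbour was not tested. Without the overlapping genes the span classes had medians of 0.32 from 2 to 5 kb and -0.15 from 100 to 300 kb. Beside the genes marked above, named genes with an opposite-strand neighbour include TPI1, PSME1, TM7SF2, EXOSC8, NUP62, PFN1, KIF15, STAG3, DDX39A, COPE, PEX14 and H4C1. Their neighbours averaged from 0.202 FPKM, beside STAG3, to 43.4 FPKM, beside H4C1. The part of reads from the opposite strand was not tested.

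Annotated transcript types were counted with and without genes that had only zeros in 1 stage and so had entered the test through the other stage. Of 147 long noncoding RNA genes, 65 were called higher and 22 lower. Without those listed at 0 throughout a stage, 43 of 124 or 34.7% were called higher and 21 or 16.9% lower, beside 30.7% higher and 29.3% lower of all 11452 genes that remained, and the median was 0.17. Of 169 small nuclear RNA genes, whose products guide splicing, 72 or 42.6% were called lower and 10 higher, with a median of -0.46, and 68 of 163 were called lower without genes listed at 0 throughout a stage. Of 203 small nucleolar RNA genes, which guide the modification of ribosomal RNA, 49 were called higher and 47 lower. Of 44 microRNA genes, 21 were called higher and 15 lower, and without those listed at 0 throughout a stage the balance turned, with 8 higher and 12 lower of 28. Of 53 other noncoding RNAs, 23 were called lower and 10 higher. These RNAs are short and many have no poly(A) tail or several copies, so their FPKM is uncertain.

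Ribosomal RNA held much of the summed FPKM of each library although the protocol selected poly(A) tails. Annotated ribosomal RNA genes had 28.3%, 28.5% and 31.4% of summed FPKM in MII, against 23.1%, 23.8% and 23.8% in GV (exact permutation p = 0.1, the smallest possible). The 5.8S ribosomal RNA gene alone was at 131420.0, 135371 and 151648 FPKM in MII, against 80682, 82013 and 81664 FPKM in GV, a log2 change of 0.77 ± 0.10 (SE, n = 3 each; limma adjusted p = 5.1e-04). It ranked first in all 6 libraries, so quantile normalization gives it no change. It was the 1 ribosomal RNA gene of 41 called higher by limma, and 13 of the other 40 were called lower. FPKM divides by length, which weights so short an RNA heavily, and whether these values track ribosomal RNA in the oocytes was not tested. Nuclear protein-coding genes scaled among themselves gave 3609 calls higher and 3253 lower of 10935.

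Abundant genes were called more often than rare ones. From 1 to 5 FPKM, 30.5% of 3672 genes were called higher and 19.8% lower. That class held 242 genes listed at 0 in every GV library and 24 listed at 0 in every MII library. Such genes entered the test through the other stage, so their calls are not read as support. From 100 to 500 FPKM 38.4% of 560 genes were called higher and 39.1% lower. The median SD between libraries on the log2 scale was 0.18 in MII and 0.16 in GV at 1 to 5 FPKM, and 0.06 in MII and 0.04 in GV at 100 to 500 FPKM. Of 65 genes at 500 FPKM or more, 39 or 60.0% were called lower and 17 higher, with a median of -0.22. These included the histones above and BTG4, an adaptor that brings the CCR4-NOT deadenylase to maternal messages in mouse, at 1680.0, 1590.2 and 1544 FPKM in MII, against 1925, 1934 and 1975 FPKM in GV, a change of -0.28 ± 0.04 (SE, n = 3 each; limma adjusted p = 0.0010). BTG4 kept 1 rank in all libraries, so its change is 0 with quantile normalization.

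**Figure D5:**
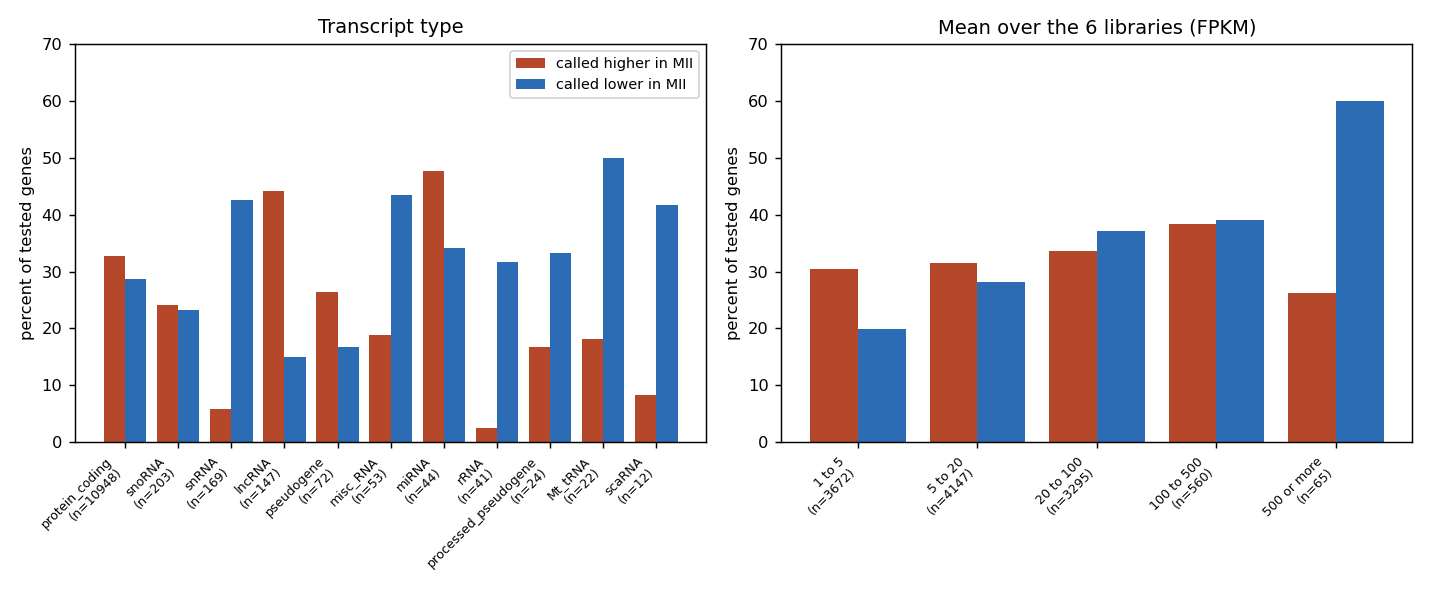
Percent of tested genes called higher (red) and lower (blue) in MII by annotated transcript type (left, types with at least 12 tested genes) and by mean FPKM over the 6 libraries (right), with the number of genes in brackets. Small nuclear RNA genes were called lower in 42.6%. Bars include genes listed at 0 throughout a stage, such as 22 of the 65 long noncoding RNA genes called higher and 13 of the 21 microRNA genes called higher. At 500 FPKM or more 60.0% were called lower.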

How the data were processed

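The authors deposited a table of FPKM per gene and library, made from poly(A) RNA of the input libraries, and its 6 input columns were used, 3 per stage. Per the submitters' processing notes, which give no role, the tools were HOMER 4.10, edgeR 4.1, StringTie 2.1.2, HISAT2 2.0.4 and fastp 0.19.4; build and annotation were not given. The values are not read counts, so depth and counting error could not be assessed and no count test was run. Genes averaging 1 FPKM or more were tested on log2(FPKM + 1), which understates changes of low genes, with limma 3.58.1 (R 4.3.3; trended eBayes, 2-sided, Benjamini-Hochberg at 0.05). Summaries used Python 3.11.15 and pandas 2.3.3. The fit was tested on simulated data. Members and lists were chosen with earlier results of these data known.

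Named genes were the 12 largest rises and falls with a mean of at least 10 FPKM. In each list, up to 2 called members per direction were named, those with the largest changes. These had a mean of at least 5 FPKM and values above 0 in all libraries. Some passed that mean through 1 stage, so their changes are not read as support. Also named were the 10 most abundant genes per stage, the 2 most abundant per span class, and the genes nearest 1 FPKM. Alternatives were pseudocount, filter, scaling, trend, replicate block and leaving out each library. The design planned classes of coding length, and no protein table was at hand, so genomic span from the files was used. A few genes that the rule names are not reported here.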

Additional observations from a re-analysis of the deposited data

How the results depend on the processing

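Across the alternatives run, between 5364 genes (mean of at least 5 FPKM) and 8698 genes (no filter on low values) were called, beside 7140, and leaving out 1 library gave 6339 to 6500. The difference in median log2 change between the 2 to 5 kb and the 100 to 300 kb class, 0.50 as reported, was 0.56 with a pseudocount of 0.1, 0.35 with no filter, 0.56 at a mean of at least 5 FPKM, 0.34 within 1 to 5 FPKM and 0.64 within 20 to 100 FPKM. Of 3928 values of 232 named genes under alternatives, 3845 kept the call or its absence, 77 lost it, 2 gained it and 4 reversed. Direction was compared only for genes called in the reported fit. The reversals came with quantile normalization: Metazoa_SRP 0.17, TMSB4X 0.15, H2AC6 0.12 and LEO1 0.27; the cause was not tested. Deviations from the stage means had correlations of -0.0547, -0.0603 and 0.0128 between same-numbered libraries. Between libraries of different number they were -0.0105 to 0.0649. Such deviations cannot show whether libraries share a batch or a collection of oocytes, and pairing was not otherwise tested. With the replicate block 6813 genes were called, 3612 higher and 3201 lower. Classes of coding length were not run. FPKM holds no depth, so no counting error is given.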
